A study of Mus musculus with 12 samples.

Results

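The regions described here are dense runs of poly(A) sites: stretches of 1 strand in which 10 or more sites follow each other with gaps of at most 2000 nt between neighbouring edges. The catalogue came from mouse embryonic stem cells and, with the 80 mitochondrial sites left out, held 145099 sites on nuclear sequences. Of these, 17840 (12.3%, 95% Wilson interval 12.1 to 12.5%) lay in 1319 dense runs. The rule used positions, strands and gaps only, so the number of sites, the span and the spacing of the runs are described without a test. The listed hexamers and the sites of the other strand took no part in it.

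A poly(A) site is the place where a nascent RNA polymerase II transcript is cut and given its poly(A) tail. The cut is directed by a hexamer a short way upstream, canonically AATAAA, to which the cleavage and polyadenylation specificity factor (CPSF) binds. Many genes use several sites in tandem, and sites can also lie in introns or in transcripts that run antisense from promoters. U1 snRNP, which recognises 5' splice sites, protects nascent transcripts from being cut early, and the nuclear exosome degrades many of the short products.

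The study read the ends of polyadenylated RNA by 2P-seq, which reads from the tail back into the transcript. The cells were clones derived from V6.5 embryonic stem cells with a conditional knockout of Exosc3, a core subunit of the exosome, and Exosc3 was present only while doxycycline was given (0.1 μg/ml). There were 12 libraries, 2 in each of 6 groups. Cells spent 3 days without or with doxycycline in 2 of the groups. In the other 4 they spent 2 days without or with it, and a U1-blocking or a scrambled morpholino antisense oligonucleotide (AMO, 15 μM) was given 8 hours before harvest. Of the 7 columns of the catalogue, 0 held a value of a library, so read depth is unknown, and no effect of Exosc3 or U1 on these runs was analysed here. The catalogue paired no site with a gene, so the cell type could not be checked against its markers. All coordinates are mm9, with starts printed as counted from 1.

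No replicates stand behind the values. Shares are given with 95% Wilson intervals, which cover counting error only and treat neighbouring sites as independent, which they are not. Differences were taken within each of the 19 autosomes and tested with a 2-sided sign-flip permutation test over them, with Benjamini-Hochberg adjustment over 19 comparisons. Autosomes are not biological replicates, so such a p-value says how even a difference was along the genome, not whether other cultures would show it.

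The runs were compact. The median dense run held 12 sites (quartiles 11 and 15, highest 76) over a span of 4376 nt (quartiles 3166 and 5792 nt, lowest 781 and highest 16228 nt). The median density was 2.98 sites per kb. The median gap to the next site downstream was 166 nt (quartiles 62 and 456 nt), against 292 nt (quartiles 96 and 779 nt) in the 12688 runs of 3 to 9 sites that serve below for comparison. Within dense runs, 2.55% of gaps were up to 25 nt, 17.4% were 26 to 50 nt, 16.7% were 51 to 100 nt and 9.62% were longer than 1 kb. The last step had the widest median gap, 379 nt into the most downstream site, against 153 nt between middle sites and 209 nt after the most upstream site. In runs of 3 to 9 these medians were 409, 231 and 299 nt.

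Dense runs were found on all autosomes. They held between 9.82% of the sites of chromosome 5 and 15.5% of those of chromosome 19, with a median over autosomes of 12.6%. The X chromosome had 31 runs with 9.26% of its sites. No site of the Y chromosome (0 of 20) or of the 221 sites on unplaced sequences belonged to one. Strands were even, with 666 plus-strand and 653 minus-strand runs. AATAAA was listed for 28.1% of sites in runs of exactly 10 and 28.2% in runs of 11, just inside it, and for 29.2% in runs of 9 and 30.04% in runs of 8, just outside. The share without a hexamer was 15.6% and 16.5% inside and 16.4% and 16.04% outside. AATAAA at the most downstream site was at 57.1% and 47.7% inside, and at 52.05% and 46.2% outside. At the most upstream site it was at 19.9% and 23.1% inside, and at 23.6% and 21.2% outside.

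The hexamers of single runs show how differently the runs were built, so 3 of them are spelled out in the direction of transcription. The run with the highest share of AATAAA, chr1:11586738-11591906 on the plus strand, had 11 sites over 5169 nt, of which 9 (81.8%) listed AATAAA. It listed TATAAA at 21 nt from the most upstream site, then AATAAA at 27, 24, 26, 21, 28, 71, 19 and 23 nt from the next 8 sites, ATTAAA at 26 nt, and AATAAA at 24 nt from the most downstream site. All but the hexamer at 71 nt lay within 15 to 30 nt, where a working signal is usually found.

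The run with the most sites, chr1:88239954-88254802 on the minus strand, had 76 sites over 14849 nt and listed 23 different hexamers. Hexamers called A-rich here (14 in number, with at least 5 adenines, the canonical one left out) were listed for 24 of its sites. ATTAAA, the main variant, was listed for 12 of its sites and AATAAA, the canonical signal, for only 4, while 14 sites had none. Of its most upstream 6 sites, 4 listed AAGAAA, at distances of 90, 42, 24 and 62 nt. The other 2 of these sites listed AAAAAA, at a distance of 56 nt, and TAAAAA, at a distance of 76 nt. Toward its downstream end came ATTAAA, at a distance of 22 nt, then AGTAAA, at a distance of 19 nt, then TATAAA, at a distance of 55 nt. Its most downstream site listed AATAAA at 35 nt. Its longest stretch without AATAAA was 25 sites.

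Other runs had stretches of sites with no listed signal. The run chr8:86714167-86727689 on the plus strand had 34 sites over 13523 nt, of which 18 (52.9%) had no hexamer, 10 of them in a row. Its most downstream AATAAA, at 21 nt, was followed by a pair of sites with the A-rich hexamer AAAATA, at 15 and 59 nt, and then by 3 sites without a hexamer. It held 20 sites of the minus strand within its span.

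**Figure D1:**
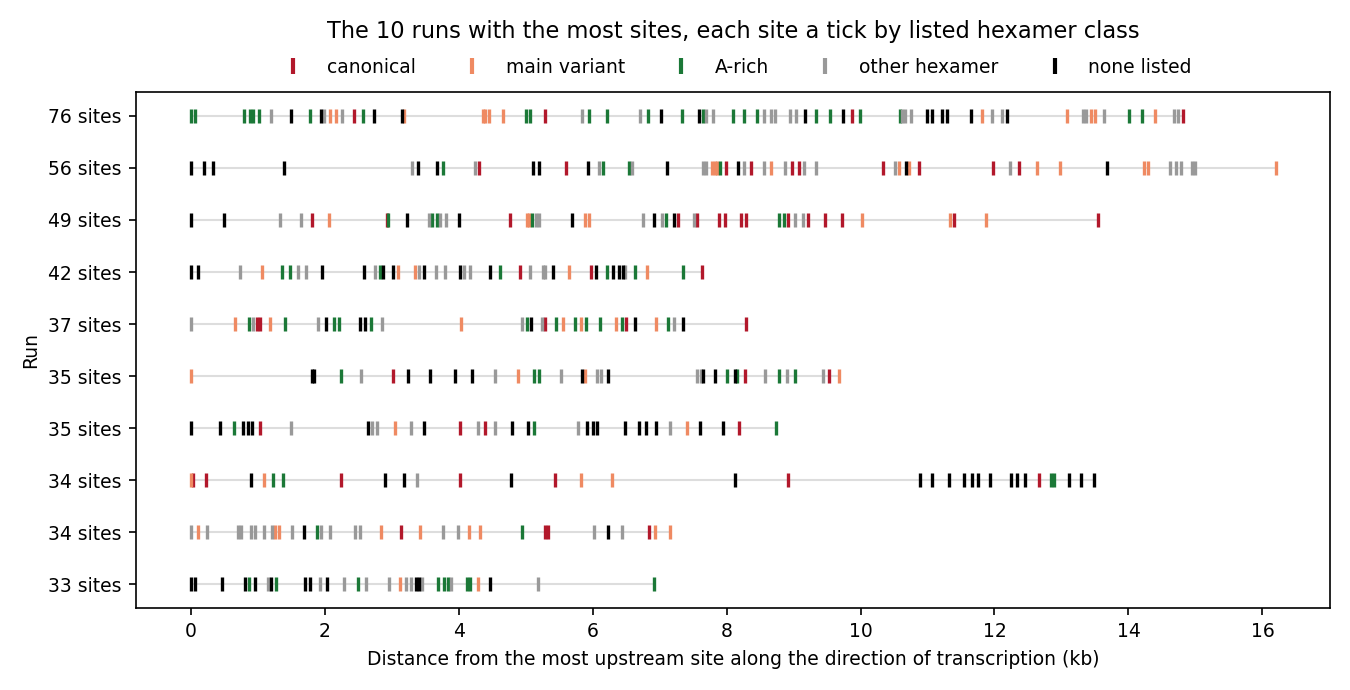
The 10 dense runs with the most sites, 1 per row from 76 to 33 sites, with each site a tick at its distance in kb from the most upstream site along the direction of transcription and coloured by the listed hexamer class (canonical AATAAA, main variant ATTAAA, A-rich, other, none). The canonical hexamer stands at the most downstream site in 4 of the 10 and is absent from the run of 33 sites.

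The other runs among the 10 with the most sites varied as widely. On chromosome 1 a minus-strand run from 180251226 to 180267453 had 56 sites and the longest span, 16228 nt, with 10 AATAAA sites, and ended with ATTAAA. On chromosome 6 a minus-strand run from 51406614 to 51420164 had 49 sites and the most AATAAA sites of all, 15. On chromosome 19 the minus-strand run from 5795686 to 5803330 had 42 sites with a median gap of 49 nt and a median site width of 83.5 nt, the widest median of the 10. It had 14 sites without a hexamer and 3 with AATAAA, 1 of them at its most downstream site. On chromosome 12 a plus-strand run from 112777818 to 112786125 had 37 sites, 12 of them A-rich. On chromosome 7 a pair of minus-strand runs had 35 sites each, from 118214069 to 118223800 with 11 sites without a hexamer, and from 52712753 to 52721506 with 18. A plus-strand run on chromosome 6 from 67233957 to 67241119 had 34 sites of which only 2 lacked a hexamer. The run with 33 sites, chr9:78322426-78329350 on the minus strand, had 0 AATAAA sites, 12 without a hexamer and 9 A-rich ones, and ended with AAAAAA.

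Most dense runs held several canonical signals. The median was 3 AATAAA sites per run (quartiles 2 and 5). AATAAA was listed 2 or more times in 1090 runs (82.6%), once in 160 (12.1%) and never in 69 (5.23%, interval 4.15 to 6.57%). Of the 1250 runs with an AATAAA site, 990 (79.2%, interval 76.9 to 81.4%) had it among their most downstream 3 sites. The median run listed 6 different hexamers (lowest 1, highest 23), and its longest stretch without AATAAA was 6 sites (median, highest 33).

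Over all members, AATAAA was listed for 4501 sites, or 25.2% (interval 24.6 to 25.9%), against 37.1% (interval 36.7 to 37.5%) in runs of 3 to 9 and 59.3% (interval 58.8 to 59.7%) among lone sites. ATTAAA, the most common variant, was listed for 14.4%, against 15.5% in runs of 3 to 9. TATAAA followed with 1129 sites (6.33%, against 5.34%), then AAGAAA with 829 (4.65%, against 3.49%), AGTAAA with 793 (4.45%, against 3.86%), AATATA with 510 (2.86%, against 2.24%) and AATACA with 488 (2.74%, against 2.32%). A-rich hexamers together were listed for 12.4% of members (interval 11.9 to 12.9%), against 9.45% in runs of 3 to 9. No hexamer was listed for 3203 members, 17.95% of them, against 13.8% in runs of 3 to 9 and 5.78% among lone sites. These totals cover all places in the run.

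The most downstream site of a dense run carried the canonical signal far more often than its most upstream site. AATAAA was listed for 668 of 1319 most downstream sites (50.6%, interval 47.9 to 53.3%) and 281 of 1319 most upstream sites (21.3%, interval 19.2 to 23.6%). Among the autosomes the share at the downstream end ran from 34.7% on chromosome 19 to 58.8% on chromosome 14 with a median of 52.1%, and the most upstream share from 12.5% on chromosome 16 to 27.7% on chromosome 15 with a median of 20.9%, so the 2 sets did not overlap. The mean difference of 29.2 percentage points ± 9.17 (SD, n = 19 autosomes) was above 0 on 19 of 19 (adjusted p = 1.9e-05, permutation test). The direction of this difference, and of those in any hexamer and in A-rich hexamers given next, was already known for all runs of 2 or more sites in this catalogue. Dense runs are among those runs, so their values are no independent evidence of it.

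Other signals moved with place too. At the downstream end 92.4% of sites had any hexamer (interval 90.9 to 93.7%) and at the upstream end 74% (interval 71.6 to 76.3%), a difference of 17.5 percentage points ± 7.32 (SD, n = 19, above 0 on 18 autosomes and equal on the other one, adjusted p = 1.9e-05, permutation test). The A-rich group had the opposite order, at 4.70% of most downstream sites (interval 3.68 to 5.98%) and 14.6% of most upstream sites (interval 12.8 to 16.6%). That difference was -10.4 percentage points ± 6.51 (SD, n = 19, below 0 on 19 of 19, adjusted p = 1.9e-05, permutation test). Of the 14 A-rich hexamers, 13 were more frequent at the most upstream than at the most downstream site. The remaining member had 0 sites at both ends, and several of the 13 rested on few sites. Hexamers outside the group went both ways, and many were also more frequent upstream. That direction is therefore not particular to the A-rich group, and the count was not tested against the other hexamers. AAGAAA alone was at 1.36% downstream and 5.69% upstream. For AAAAAA alone the shares were 0.379% and 0.682%, and their difference did not pass (-0.353 percentage points, adjusted p = 0.287, permutation test).

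The middle of a run had far less AATAAA than its downstream end. Over autosomes it was 50.2% ± 6.72 at the most downstream sites and 23.4% ± 2.72 at middle sites (SD, n = 19), a difference of 26.8 percentage points ± 6.29 that was positive on 19 of 19 (adjusted p = 1.9e-05, permutation test). The most upstream sites were at 21% ± 4.38 and did not differ from the middle sites beyond the spread (difference -2.38 ± 5.55 percentage points, from -12.2 to 5.84 over autosomes, adjusted p = 0.0921, permutation test). This call was not stable. The difference passed under 4 of 11 other settings, with the lowest value, -3.43, without sites wider than 50 nt, it passed without chromosome 17 (-2.84), and it was 1.101 with a join gap of 5000 nt. The share without a hexamer ordered the 3 places as 7.58% at the most downstream, 18.2% at middle and 26% at the most upstream sites.

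**Figure D2:**
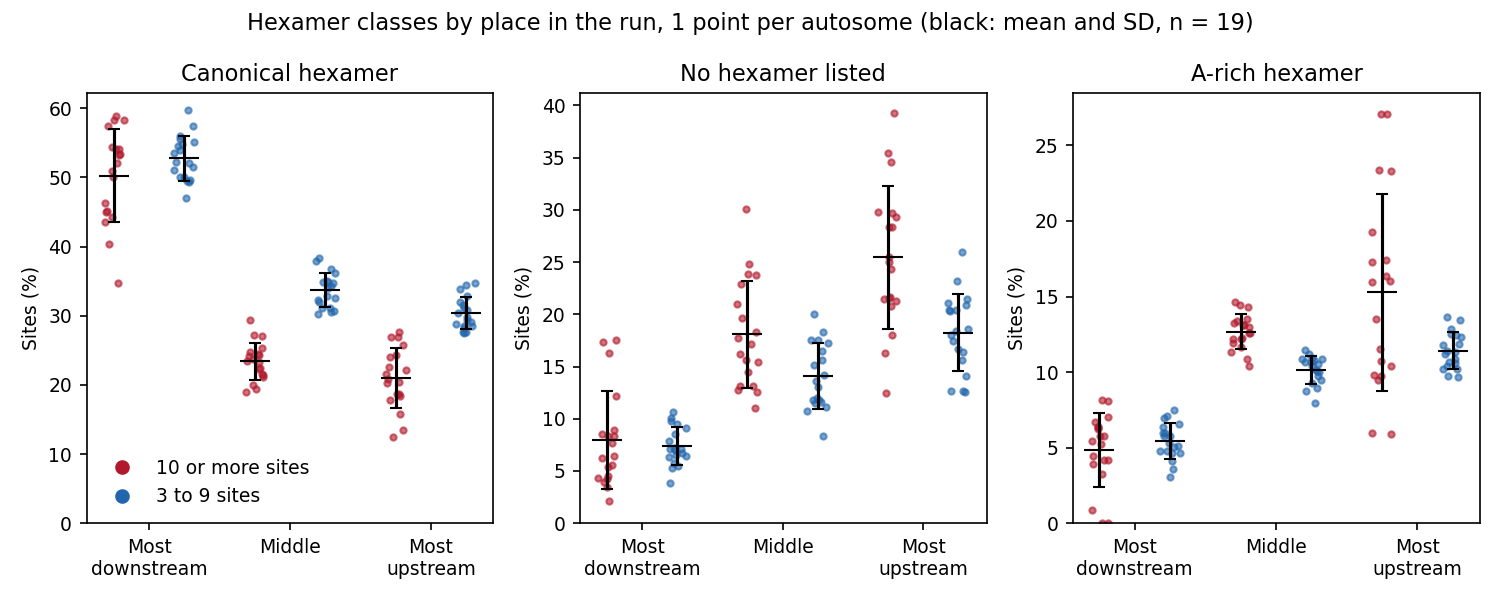
Share of sites (%) with the canonical hexamer, with no hexamer and with an A-rich hexamer at the most downstream, middle and most upstream sites of runs of 10 or more sites (red) and of runs of 3 to 9 sites (blue), with 1 point per autosome and the mean and SD over 19 autosomes in black. The canonical share averages 50.2% in dense runs and 52.8% in runs of 3 to 9 at the most downstream site, and 23.4% and 33.7% at middle sites.

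Set against runs of 3 to 9 sites, dense runs differed in the middle and at the upstream end. Counted in sites, the rule on run size puts both places mostly further from the 3' end in dense runs. These differences are therefore not separate from the profile from the 3' end given below. AATAAA was listed for 23.4% ± 2.72 of middle sites of dense runs and 33.7% ± 2.49 of middle sites of runs of 3 to 9 (a difference of -10.3 ± 2.31 percentage points, SD, n = 19, with 19 of 19 lower, adjusted p = 1.9e-05, permutation test). Most upstream sites had AATAAA in 21% ± 4.38 in dense runs and 30.4% ± 2.34 in runs of 3 to 9 (a difference of -9.35 ± 5.06, with 19 of 19 lower, adjusted p = 1.9e-05, permutation test, and -5.41 with a join gap of 5000 nt). This was no step at 10 sites, since runs of exactly 8 and 9 sites had 21.2% and 23.6%, and runs of 10 and 11 had 19.9% and 23.1%. At the most downstream site the shares in dense runs and in runs of 3 to 9 were 50.2% ± 6.72 and 52.8% ± 3.26. That difference did not pass (-2.56 percentage points ± 6.10, from -14.7 to 4.52, adjusted p = 0.094, permutation test). It did pass under 5 other ways of forming the runs, with the lowest value, -8.37, for runs of 15 or more sites. The most downstream sites of dense runs had AATAAA less often than lone sites, by 8.98 percentage points ± 7.24 (50.2% against 59.2% ± 1.52, with 17 of 19 lower, adjusted p = 3.45e-05, permutation test). The size of that difference depended on the join gap, at -15.9 with 1000 nt and -4.34 with 5000 nt, and was -14.8 for runs of 15 or more sites.

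Middle sites of dense runs also differed in the rest of their signals. The limit on place just given holds here too. Any hexamer was listed for 81.9% ± 5.15, against 85.9% ± 3.16 in runs of 3 to 9 (a difference of -4.00 ± 2.96 percentage points, with 19 of 19 lower, adjusted p = 1.9e-05, permutation test). Without sites wider than 50 nt it was -2.06 (adjusted p = 0.0113, permutation test). The A-rich share was 12.7% ± 1.16, against 10.1% ± 0.922 (difference 2.53 ± 1.49, higher on 18 of 19, adjusted p = 1.9e-05, permutation test). For ATTAAA the values were 14.5% ± 2.47 and 15.6% ± 0.868, and the difference of -1.13 ± 2.36 did not pass (adjusted p = 0.0665, permutation test). It passed under 4 of 11 other settings, with values from -1.48 to -1.16, and without chromosome 1, 12, 14 or 18 (-1.36 to -1.27). It was -0.405 without sites wider than 50 nt.

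Both kinds of run had nearby values when sites were counted from the 3' end. At the second site from the 3' end AATAAA was listed for 39.4% in dense runs (interval 36.8 to 42.1%) and 40.5% in runs of 3 to 9 (interval 39.6 to 41.3%). At the third site it was 34.0% and 32.9%, at the fourth 28.0% and 29.2%, at the fifth 26.2% and 24.9%, at the seventh 21.3% and 21.1%, and at the eighth 18.4% and 21.4%. Further upstream, where only dense runs have sites, the share went on to 17.4% at ranks 11 to 20 (interval 16.1 to 18.8%) and 14.3% at ranks 21 and beyond (interval 11.5 to 17.6%). When middle sites were matched by rank 2 to 5 from the 3' end, the difference in AATAAA between dense runs and runs of 3 to 9 was -0.26 percentage points ± 3.11 (31.8% against 32.1%, SD, n = 19, lower on 11 of 19, adjusted p = 0.725, permutation test).

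The same match left no called difference in the other signals. The difference was 1.14 percentage points for any hexamer (adjusted p = 0.224, permutation test), -0.952 for A-rich hexamers (adjusted p = 0.143, permutation test) and 1.00 for ATTAAA (adjusted p = 0.285, permutation test). Counted from the 5' end instead, the runs stayed apart. At ranks 2 to 4 from the 5' end AATAAA was at 18.2% in dense runs and 32.95% in runs of 3 to 9 (a difference of -14.8 ± 3.24 percentage points, with 19 of 19 lower, adjusted p = 1.9e-05, permutation test). There the difference was -7.75 for any hexamer and 4.52 for A-rich hexamers. The rule on run size puts these ranks mostly further from the 3' end in dense runs, so these differences are not separate from the profile by rank from the 3' end. These matches were chosen after the profiles by rank had been seen.

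**Figure D3:**
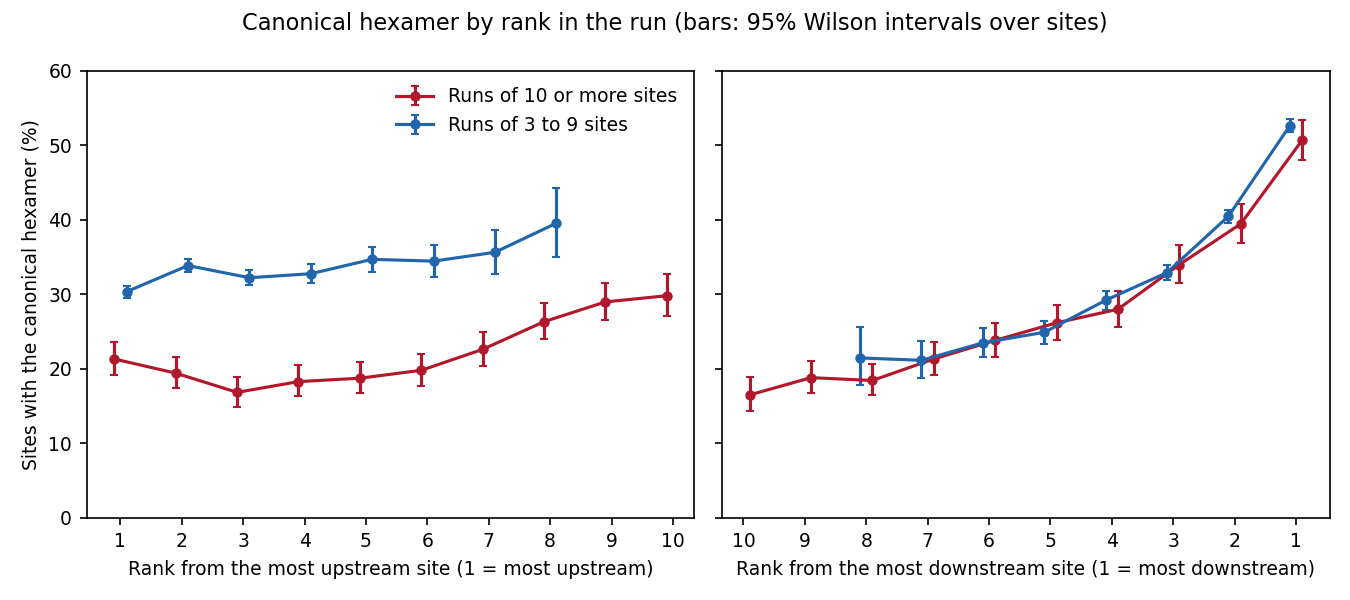
Share of sites (%) with the canonical hexamer by rank from the most upstream site (left) and by rank from the most downstream site (right), for runs of 10 or more sites (red) and of 3 to 9 sites (blue), with 95% Wilson intervals as bars and the site at the far end of each run left out. By rank from the 3' end the 2 lines lie together from 50.6% and 52.6% at the most downstream site to 21.3% and 21.1% at the seventh, while by rank from the 5' end they stay apart.

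Matched by distance in nt, the runs stayed apart. Middle sites 1 to 2 kb upstream of the most downstream site had AATAAA in 24.5% in dense runs (interval 23.1 to 25.9%) and 33.7% in runs of 3 to 9 (interval 32.8 to 34.7%). At 3 to 5 kb the shares were 19.6% and 30.9%. Matched by this distance, the difference over autosomes was -8.41 ± 2.64 percentage points (19 of 19 lower, adjusted p = 2.37e-05, permutation test). Middle sites with their nearest neighbour at 26 to 50 nt had AATAAA in 18.96% in dense runs and 29.1% in runs of 3 to 9, and those with it beyond 400 nt in 37.9% and 43.2%. Matched by the gap to the nearest site, the difference was -8.71 ± 2.46 (19 of 19 lower, adjusted p = 2.37e-05, permutation test).

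By length of run, AATAAA was listed for 27.7% of sites in the 742 runs of 10 to 12 sites, 24.4% in the 308 runs of 13 to 15, 23.8% in the 157 runs of 16 to 19, 21.6% in the 92 runs of 20 to 29 and 18.6% in the 20 runs of 30 or more. Over the same order the median gap was 191, 165, 149.5, 138 and 112 nt, and the share of sites without a hexamer 16.3%, 18.2%, 18.1%, 22.3% and 21.9%. Longer runs hold by rule more sites at high ranks from the 3' end, where AATAAA was listed less often. The fall in AATAAA with length is therefore not separate from the profile by that rank. Tested over middle sites, runs of 20 or more had AATAAA at 21.7% ± 7.01 and runs of 10 to 19 at 24.1% ± 3.18, which did not differ beyond the spread (a difference of -2.42 ± 7.50 percentage points, with 11 of 19 lower, adjusted p = 0.187, permutation test). It passed under 3 of 11 other settings, at -3.96 with a join gap of 1000 nt, -3.45 with 5000 nt and -3.65 with dense runs from 8 sites. In the 20 longest runs AATAAA stood at 6 of the most downstream sites and at 0 of the most upstream sites. Taken as 3 counts of the total, a count of 0 allows a share of up to 15.0% there, and the Wilson interval reaches 16.1%.

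**Figure D4:**
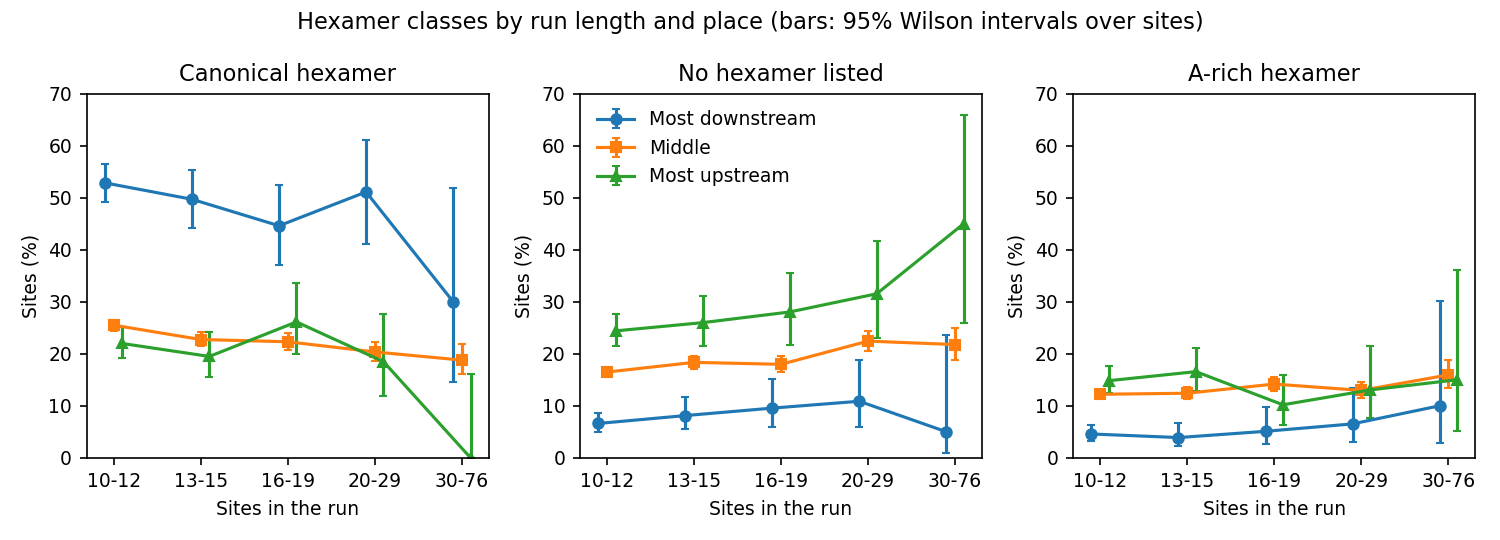
Share of sites (%) with the canonical hexamer, with no hexamer and with an A-rich hexamer in runs of 10 to 12, 13 to 15, 16 to 19, 20 to 29 and 30 to 76 sites, with a line each for the most downstream, middle and most upstream sites and 95% Wilson intervals as bars. The canonical share of middle sites goes from 25.5% in runs of 10 to 12 sites to 18.8% in runs of 30 or more, and the last bin holds only 20 runs. The bins are not matched by rank from the 3' end.

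Where a hexamer was listed, its distance also varied with place. It lay at 15 to 30 nt in 79.1% of the most downstream sites of dense runs (interval 76.7 to 81.3%). It did so in 64.1% of middle sites (interval 63.3 to 64.98%) and 65.98% of the most upstream sites (interval 62.95 to 68.9%). Over autosomes the share at middle sites was 64.1% ± 1.82 in dense runs and 69.4% ± 1.13 in runs of 3 to 9, a difference of -5.27 ± 1.81 percentage points (19 of 19 lower, adjusted p = 1.9e-05, permutation test). Matched by the gap to the nearest site it was -2.54 ± 2.16 (17 of 19 lower, adjusted p = 0.000222, permutation test), and matched by rank 2 to 5 from the 3' end 0.794 (adjusted p = 0.292, permutation test). At ranks 2 to 4 from the 5' end it was -8.30, and for runs of 15 or more sites -8.39. The shares by place pool all hexamers, whose mix also varied with place. For AATAAA alone the median distance was 22 nt at all 3 places. It lay at 15 to 30 nt in 87.6% of the most downstream, 78.6% of middle and 81.5% of the most upstream sites that listed it. A-rich hexamers lay at 15 to 30 nt in only 38.3% of the members that listed them and at 61 to 100 nt in 29.2%.

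Neighbouring sites can list the same copy of a hexamer. Counted where the next site upstream listed the same hexamer and the implied positions overlapped, this was possible for 6.06% of the members that have a site upstream in their run (interval 5.71 to 6.43%), against 4.74% of such sites in runs of 3 to 9 (interval 4.54 to 4.94%). The closer spacing that the rule sets in dense runs enters these shares, which were not tested. Of the 333 members with AATAAA at 61 to 100 nt, 264 (79.3%) were such sites. AATAAA at exactly 11 nt, a distance at which this catalogue has a narrow peak, varied with run size. It accounted for 36 of the 4501 AATAAA sites of dense runs (0.800%, interval 0.578 to 1.11%), against 1.28% in runs of 3 to 9 (interval 1.13 to 1.44%), 2.47% in runs of 2 and 6.47% among lone sites (interval 6.19 to 6.77%).

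Sites without a hexamer were uneven among runs. Every site had a hexamer in 326 runs (24.7%), the median run lacked one at 10.5% of its sites, and 73 runs (5.53%, interval 4.42 to 6.90%) lacked one at more than 50% of them. These 73 runs held 653 of the 3203 members without a hexamer (20.4%). A stretch of 3 or more such sites in a row was found in 215 runs (16.3%). The run with the highest share was chr7:28113441-28119095 on the minus strand, where 9 of 10 sites had none and the other listed CATTAA at 49 nt. On chromosome 17 a plus-strand run from 28465934 to 28468018 had none at 10 of 12 sites and ended with AATAAA at 25 nt. On chromosome 4 a plus-strand run from 155068931 to 155072296 had none at 12 of 15 sites. Over autosomes the share of members without a hexamer ran from 10.4% on chromosome 18 to 29.5% on chromosome 17, with a median of 16.9%.

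Runs without AATAAA numbered 69. Besides the run on chromosome 9 already described, those with the most sites were a plus-strand run on chromosome 11 from 97522160 to 97528476, with 15 of 21 sites without a hexamer, and a plus-strand run on chromosome 19 from 23208053 to 23212852, with 10 of 20. At the other end, a plus-strand run on chromosome 4 from 21674790 to 21677697 and another on chromosome 6 from 13034629 to 13039286 each had AATAAA at 8 of 11 sites (72.7%), the most downstream one included.

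The shortest runs packed 10 sites into about 1 kb. On chromosome 10 a minus-strand run from 93045492 to 93046272 had 10 sites in 781 nt (12.8 sites per kb) and ended with AATAAA. Another on chromosome 10, from 127984995 to 127985903, had 10 in 909 nt, with 6 lacking a hexamer. On chromosome 5 a run from 134658524 to 134659578 had 10 in 1055 nt, with 4 AATAAA sites, none of them the most downstream. By contrast, the second longest span, 15611 nt on the minus strand of chromosome 2 from 180408333, held 27 sites with a median gap of 480 nt.

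Member sites were wider than other sites, a measure that enters the gaps of the rule and was not tested. Dense runs had a median site width of 17 nt (quartiles 7 and 33 nt), against 13 nt in runs of 3 to 9 and 6 nt for lone sites. Sites wider than 50 nt made up 12.8% of members, 6.97% of sites in runs of 3 to 9 and 1.23% of lone sites. Within dense runs the most downstream sites had a median of 12 nt, the same as in runs of 3 to 9, while middle sites had 18 nt against 14 nt. The numbers in the site identifiers run in genome order. Of the identifiers with a hexamer that span the dense runs, 54.5% were present in the catalogue, against 60.3% for runs of 3 to 9, 73.6% for runs of 2 and 29.3% over the whole range. Runs begin and end on kept sites and are joined from nearby kept sites, which by itself raises their shares. The 15747 kept identifiers also exceed the 14637 members with a hexamer, so other sites in the same ranges are counted. These shares therefore do not show how sites of dense runs were kept. The rule for keeping sites was not stated in the labels or the file.

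Sites on the opposite strand lay near many members. Of members, 11.5% (interval 11.03 to 11.96%) had an opposite-strand site within 500 nt between midpoints. Over autosomes the share was 11.2% ± 4.31 in dense runs and 10.4% ± 1.84 in runs of 3 to 9, which did not differ beyond the spread (difference 0.831 percentage points ± 3.31, from -5.31 to 6.74, adjusted p = 0.287, permutation test). The share of 11.2% ± 4.31 in dense runs was above the 5.73% ± 1.31 of lone sites by 5.46 percentage points ± 3.63 (higher on 18 of 19, adjusted p = 1.9e-05, permutation test). Within 200 nt instead of 500 nt the difference was 3.05 percentage points. The share in dense runs ran from 3.21% on chromosome 18 to 18.8% on chromosome 11, and on the X chromosome it was 0.510%. A single opposite-strand site can lie near several members of a run.

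Within dense runs the downstream end had opposite-strand sites nearby more often than the upstream end. An opposite-strand site within 500 nt was present for 181 of 1319 most downstream sites (13.7%, interval 11.97 to 15.7%) and 115 of 1319 most upstream sites (8.72%, interval 7.31 to 10.4%). The difference over autosomes was 4.57 percentage points ± 5.02 (SD, n = 19, above 0 on 15 and below on 2, adjusted p = 0.000365, permutation test). In runs of 15 or more sites it was 0.502 (adjusted p = 0.868, permutation test). Middle members with such a neighbour listed AATAAA in 28.7% ± 7.08 and those without in 22.8% ± 2.67, a difference of 5.85 percentage points ± 5.99 (higher on 17 of 19, adjusted p = 0.000174, permutation test) that was 2.44 in runs of 15 or more sites (adjusted p = 0.24, permutation test) and 8.96 with runs weighted equally. These 2 groups were not matched by place, and both shares were higher toward the 3' end. At the second site from the 3' end 39.4% of members listed AATAAA and 14.4% had such a neighbour. At the eighth the shares were 18.4% and 10.2%. The part of place in this difference was not tested.

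Opposite-strand sites also lay inside whole runs. A site of the opposite strand lay inside the span of 397 dense runs (30.1%, interval 27.7 to 32.6%) and of 15.2% of runs of 3 to 9. Per kb of span there were 0.214 such sites in dense runs and 0.163 in runs of 3 to 9. A total of 46 dense runs formed 23 overlapping pairs on opposite strands, with a median overlap of 2888 nt. In 9 pairs the 3' parts overlapped, in 10 the 5' parts, and in 4 one run lay inside the other. The longest overlap was 7923 nt on chromosome 11, where a plus-strand run of 12 sites from 51410088 to 51418010 lay inside a minus-strand run of 32 sites. The next were a pair with 13 sites on each strand on chromosome 4 (overlap 6251 nt, from 83106347 to 83112597), a pair of 23 and 11 sites on chromosome 8 (6141 nt), a pair of 13 and 14 sites on chromosome 8 (5079 nt), and on chromosome 19 the run of 20 sites without AATAAA inside a minus-strand run of 27 sites (4800 nt).

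Around the run ends the frequency of opposite-strand sites varied with distance. Upstream of the most upstream site they were most frequent in dense runs at 1000 to 1500 nt, where 134 of 1319 dense runs had one (10.2%, interval 8.64 to 11.9%), against 6.999% of runs of 3 to 9 (interval 6.57 to 7.46%). At 1500 to 2000 nt, where runs of 3 to 9 had their highest share, it was 9.33% of dense runs (interval 7.87 to 11.01%) and 7.51% of runs of 3 to 9 (interval 7.07 to 7.98%). In the 500 nt just upstream of that site it was 4.85% of dense runs (interval 3.82 to 6.15%) and 4.27% of runs of 3 to 9 (interval 3.93 to 4.64%). Over 1 to 2 kb upstream, 15.2% of dense runs had an opposite-strand site (interval 13.3 to 17.2%), against 12.2% of runs of 3 to 9 (interval 11.6 to 12.7%), and dense runs were higher on 13 of 19 autosomes. At the same distance downstream of the most upstream site the share in dense runs was 10.2% (interval 8.64 to 11.9%). At the downstream end the highest shares were in the windows that touch the most downstream site, with 8.79% (interval 7.38 to 10.5%) just upstream of it and 9.10% (interval 7.66 to 10.8%) just downstream, against 6.75% and 6.34% in runs of 3 to 9. These windows were singled out after the profile had been seen and were not tested. Transcript starts were not used here, so no orientation relative to a promoter is given.

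**Figure D5:**
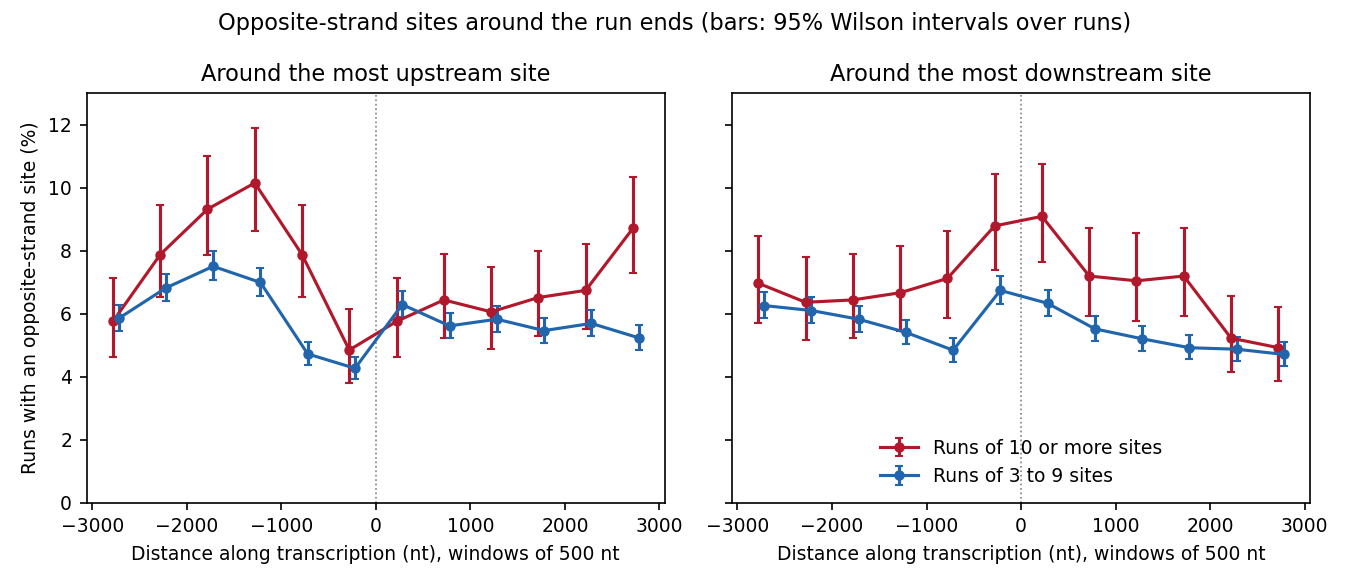
Share of runs (%) with a site of the opposite strand in each window of 500 nt, by distance in nt along the direction of transcription from the most upstream site (left) and the most downstream site (right) of the run, for runs of 10 or more sites (red) and of 3 to 9 sites (blue), with 95% Wilson intervals over runs as bars. Dense runs reach 10.2% at 1000 to 1500 nt upstream of the most upstream site and 9.10% just downstream of the most downstream site.

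The opposite-strand sites within 500 nt of members numbered 1457, of which 770 belonged to runs of 3 to 9 and 399 to other dense runs, 127 to runs of 2 and 161 were lone. The whole catalogue held 56835 sites in runs of 3 to 9, 17840 in dense runs, 23046 in runs of 2 and 47378 lone sites. AATAAA was listed for 28.6% of those near members in dense runs (interval 24.4 to 33.2%), 36.9% of those in runs of 3 to 9 (interval 33.5 to 40.3%) and 63.4% of those that were lone (interval 55.7 to 70.4%). Over all sites of these classes the shares were 25.2%, 37.1% and 59.3%, inside these intervals. The order is therefore that of the classes and not particular to sites near members.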

How the data were processed

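The catalogue gave each site's strand, coordinates, hexamer and other properties such as the hexamer distance in nt, deposited by the authors as 1 table, per the file headers. Trimmomatic, STAR, bedtools and the mm9 build are named in the submitters' processing notes. The rule by which read ends became sites, and any filter against priming inside A-rich sequence, are not given in the sources used here. Sites from such priming were not removed, and their part in the results was not tested. Libraries were grouped by their labels, but the table holds no library's value. No genome of the build was at hand, so no flanking sequence or gene is given.

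Starts were taken as counted from 0. Sites of the same strand were joined with gaps of at most 2000 nt, and runs of 10 or more sites were kept. Runs of 3 to 9 sites and lone sites served for comparison. An autosome entered a difference where both sets held 5 or more sites. The sign-flip permutation test used 100000 resamples (seed 1), whose smallest possible p is 1e-05. A hexamer counted as possibly shared allowing for the whole width of both sites, since the point from which distances run is unknown. Runs named were those with the most sites, extreme spans, extreme hexamer shares and the longest overlaps. The members, lists and tests were chosen with earlier results of these data known. The procedure was tested on simulated data. Python 3.11.15 was used with pandas 2.3.3, numpy 2.4.6, matplotlib 3.10.9 and scipy 1.17.1.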

Additional observations from a re-analysis of the deposited data

Results flagged for a closer look

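The rise in AATAAA between the 2 ends of a run differed between dense runs and runs of 3 to 9 sites by a test of the difference itself. The most downstream site exceeded the most upstream site by 29.2 percentage points ± 9.17 in dense runs and by 22.4 percentage points ± 3.28 in runs of 3 to 9 (SD, n = 19 autosomes). The difference of the 2 was 6.79 percentage points ± 8.79, above 0 on 15 of 19 (adjusted p = 0.00483, permutation test). It was 4.02 with a join gap of 5000 nt and 3.46 in runs of 15 or more sites (adjusted p = 0.24, permutation test). Counted in sites, the rule on run size puts the most upstream site further from the 3' end in dense runs than in runs of 3 to 9. AATAAA fell with rank from the 3' end in both kinds of run, so this difference is not separate from that profile. No step at 10 sites was seen. The most downstream and most upstream shares were 46.2% and 21.2% in runs of exactly 8 sites and 52.05% and 23.6% in runs of 9. They were 57.1% and 19.9% in runs of 10 and 47.7% and 23.1% in runs of 11.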

How the results depend on the processing

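No paired analysis was possible because the columns carry no value of a library. Of 220 values of the 19 tested differences under other join gaps (1000 or 5000 nt), lowest run sizes (8 or 15 sites), width limits and the other settings, 198 kept direction and side of the threshold. The most upstream minus middle difference in AATAAA passed at -2.71 with a join gap of 1000 nt, -3.003 with runs from 8 sites, -3.43 without sites wider than 50 nt and -3.07 with runs weighted equally, and turned to 1.101 with a gap of 5000 nt (adjusted p from 0.00888 to 0.339). The difference in ATTAAA at middle sites passed at -1.48 with a gap of 1000 nt, -1.16 with 5000 nt, -1.48 without possibly shared hexamers and -1.36 with runs weighted equally. Dense runs minus runs of 3 to 9 at the most downstream site passed for AATAAA at -4.56 with a gap of 1000 nt, -3.59 from 8 sites, -8.37 from 15 sites, -3.46 without sites wider than 50 nt and -3.93 without sites 1 nt wide. Runs of 20 or more minus shorter dense runs passed at -3.96 with a gap of 1000 nt, -3.45 with 5000 nt and -3.65 from 8 sites. With runs from 15 sites, the difference between the ends' differences was 3.46, that of opposite-strand sites between the ends 0.502 and that of AATAAA by opposite-strand neighbour 2.44, none past the threshold. With AAAAAA alone, the A-rich differences were -0.353 between the ends and 0.176 at middle sites, neither past it. Leaving out 1 autosome kept 356 of 361 values on their side. The 5 others now passed, for most upstream minus middle without chromosome 17 (range -2.84 to -1.84 over the autosomes left out) and for ATTAAA at middle sites without chromosomes 1, 12, 14 or 18 (range -1.36 to -0.908). Of 20 matched values, chosen after seeing the data, 14 kept direction and side. By rank 2 to 5 from the 3' end, AATAAA came to -0.26, ATTAAA to 1.00, any hexamer to 1.14, A-rich to -0.952 and hexamers at 15 to 30 nt to 0.794, none past the threshold. By rank 2 to 4 from the 5' end ATTAAA passed at -2.76. The number of dense runs was 819 and 2317 with gaps of 1000 and 5000 nt, and 2327 and 344 from 8 and 15 sites, against 1319. Their share of sites was 7.41, 23.1, 18.1 and 4.61% in that order, 9.21% without sites wider than 50 nt and 10.9% without sites 1 nt wide, against 12.3%. Causes of these changes were not tested. The catalogue gives no depth, so rarely used sites weigh as much as abundant ones.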
